A study of Mus musculus with 8 samples.

Results

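Open chromatin was described at 10 genes linked to the follicular helper fate of CD4 T cells: Bcl6, Prdm1, Maf, Pou2af1, Sh2d1a, Tox, Tox2, Pdcd1, Btla and Cd200. They are 10 of the 21896 protein-coding genes in the RefSeq gene table of GRCm38.p6. The accessible regions counted for them are all those that overlap the gene body or the 20 kb on both sides of it, 178 of the 175276 regions in the deposited peak lists. The genes were chosen for their roles and not by a measured value, though with earlier results of these data known.

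The cells were naive CD4 T cells sorted from mouse spleen, and the assay was ATAC-seq, in which a transposase cuts open DNA. Groups, with 2 libraries each, were Tet1/3 cDKO with IL-2, Tet1/3 cDKO with TGF-β only, control with IL-2 and control with TGF-β only. cDKO stands for the double knockout of Tet1 and Tet3, whose enzymes oxidise methylated cytosine, and the control is labelled WT. All groups received anti-CD3 at 0.25 µg/mL, anti-CD28 at 1 µg/mL and TGF-β at 20 ng/mL for 48 h, and the IL-2 groups 100 U of IL-2 in addition. Libraries were made from 90000 cells each. No source used here gives the Cre driver, the deleted exons, or the number, age and sex of the animals. The culture was set up to induce regulatory T cells, so no follicular helper cells were sorted. The design text calls the replicates biological, without naming animals, so p-values measure the spread between these libraries.

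Follicular helper T cells help B cells in germinal centres. Bcl6 is the transcriptional repressor that defines them, and Prdm1 encodes Blimp-1, a repressor that opposes Bcl6 and is used by effector and regulatory T cells. Each represses the gene of the other, and IL-2 signalling through STAT5 is known to favour Blimp-1 over Bcl6. Tox and Tox2 are HMG-box DNA-binding proteins, and Maf encodes c-Maf, a factor for IL-21. Pou2af1 encodes a coactivator of octamer-binding factors. Sh2d1a encodes SAP, an adaptor of SLAM-family receptors that T cells need for lasting contact with B cells. Pdcd1 encodes PD-1 and Btla encodes BTLA, both inhibitory receptors, and Cd200 encodes a surface ligand for an inhibitory receptor.

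TET enzymes act on methylated cytosine, which in mammals lies mostly in CG dinucleotides, so promoter windows were read for CG content. RefSeq windows of GRCm38.p6, from 250 bases before to 50 after a start site, matched 7 of the 10 genes with 12 windows. No window was printed for Maf, Sh2d1a and Tox. The 4 windows below are shown because an open region that carries a result covers them, or because they belong to the opposed pair Bcl6 and Prdm1. Each is written 5′ to 3′ on the strand of its gene, in lower case with CG in capitals.
Cd200, chr16:45409004-45409303, minus strand: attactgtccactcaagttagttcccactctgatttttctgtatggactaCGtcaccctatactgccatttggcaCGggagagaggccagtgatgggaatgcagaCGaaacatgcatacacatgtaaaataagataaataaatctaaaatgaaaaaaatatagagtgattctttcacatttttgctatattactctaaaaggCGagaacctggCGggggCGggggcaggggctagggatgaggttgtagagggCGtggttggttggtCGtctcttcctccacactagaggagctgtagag
Pou2af1, chr9:51213440-51213739, plus strand: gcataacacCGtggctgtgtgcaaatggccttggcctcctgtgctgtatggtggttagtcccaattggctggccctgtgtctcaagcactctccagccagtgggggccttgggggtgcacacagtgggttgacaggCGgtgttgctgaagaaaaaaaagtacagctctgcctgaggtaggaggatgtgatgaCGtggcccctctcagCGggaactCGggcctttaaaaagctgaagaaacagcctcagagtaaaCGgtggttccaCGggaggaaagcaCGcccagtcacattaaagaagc
Bcl6, chr16:23988803-23989102, minus strand: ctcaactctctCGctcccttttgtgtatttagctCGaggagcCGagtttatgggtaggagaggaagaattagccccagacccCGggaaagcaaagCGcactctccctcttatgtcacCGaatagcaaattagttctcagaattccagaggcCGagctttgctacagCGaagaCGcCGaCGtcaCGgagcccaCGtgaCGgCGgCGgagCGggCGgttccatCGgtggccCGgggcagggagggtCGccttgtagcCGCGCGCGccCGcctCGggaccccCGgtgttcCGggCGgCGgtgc
Prdm1, chr10:44458699-44458998, minus strand: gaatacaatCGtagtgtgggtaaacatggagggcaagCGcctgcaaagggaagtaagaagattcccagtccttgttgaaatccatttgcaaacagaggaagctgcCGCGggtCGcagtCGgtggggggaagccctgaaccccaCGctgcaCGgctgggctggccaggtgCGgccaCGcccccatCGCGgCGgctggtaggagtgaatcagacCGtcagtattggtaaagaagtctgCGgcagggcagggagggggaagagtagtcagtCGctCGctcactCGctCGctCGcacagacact

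The Bcl6 window held 31 CG dinucleotides and the Prdm1 window 20. Those of Cd200 and Pou2af1 held 8 each. The median over 32851 promoter windows was 7, with quartiles of 3 and 20. Of the remaining members, Tox2 ranged from 7 to 39 CG dinucleotides over 5 windows, and Pdcd1 and Btla had 5 each. The second Bcl6 window, at another start site, held 14. Each printed window was chosen partly because an open region covers it, and that region was listed in all 8 libraries. The second Bcl6 window lies under a region listed in 1 library, and 3 of the 5 Tox2 windows, with 23, 7 and 8 CG dinucleotides, lie under none.

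Motifs were searched by their letters on both strands, with positions counted from 1 at the 5′ end of the window. The Prdm1 window had a match to the AP-1 motif TGANTCA at 203, which 7.81% of all windows hold. The Bcl6 window had a match to the STAT motif TTCNNNGAA at 133, against 8.3% of all windows. The second Bcl6 window, not printed, had 3 STAT matches and 1 to the TCF/LEF motif. The Cd200 window had a match to GTGAAAG, a motif of Blimp-1 and interferon regulatory factors, at 171, against 4.24%. The Pou2af1 window held none of these, nor the RUNX motif TGTGGT (16.8% of all windows) or the TCF/LEF motif CTTTGA (16%). A letter match is not evidence that a factor binds there.

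The 8 deposited lists held 65811 to 145979 peaks. To compare libraries, each list was reduced to the 65811 peaks of highest −log10 p, and a region was called listed where such a peak overlapped it. A rank of 1 is the strongest peak of a library, so a smaller rank means a stronger peak, and unlisted regions were placed last at 65812. The shortest list, replicate 2 of control with IL-2, stands apart. There the limit fell at a −log10 p of 3.25, against 7.97 to 13.5 in the other lists, and it held 25.2% of all 16003 regions listed in a single library. Regions over Tet1 numbered 7 to 10 in cDKO libraries and 8 to 10 in control libraries, and those over Tet3 13 in cDKO and 12 to 14 in control. Without the deleted exons these counts check nothing about the deletion.

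The labelled cell type was set against marker genes, counting regions in the gene body and 1 kb around it. All 6 CD4 T cell markers had regions in all 8 libraries, 17 to 20 regions in sum per cDKO library and 16 to 17 per control library. B cell markers also had regions, 17 to 24 per cDKO library and 18 to 20 per control library, with 4 of 7 genes listed in all 8 libraries and Ms4a1 at 0 throughout. Plasma cell markers summed to 3 in cDKO and 2 to 5 in control, with 2 of 3 genes in all 8 libraries and Jchain at 0. CD8 and NK cell markers summed to 3 to 5 in cDKO and 2 to 4 in control, with 2 of 5 genes in all 8 libraries and Ncr1 at 0. Myeloid markers summed to 10 to 11 in cDKO and 10 to 12 in control, with 2 of 5 genes in all 8 libraries and Lyz2 at 0, and erythroid markers to 2 in each library, from 2 of 3 genes, with Hbb-bs at 0. Open chromatin at a gene is not its expression, and the part of other cells in the results below was not tested.

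The windows of the 10 genes held 105 listed regions, out of 95899 listed in all. Of these, 48 were listed in all 8 libraries, or 45.7%, against 42.4% of all regions. Another 17, or 16.2%, were listed in 1 library, against 16.7% of all regions, and 8 of the 17 came from replicate 2 of control with IL-2. Regions at an end of a member gene, within 1 kb, were the steadiest: 14 of 15 were in all 8 libraries, or 93.3%, against 34 of the other 90, or 37.8%. The same contrast over all regions was 72.4% against 36.5%. The median rank of the 48 constant regions was 21330, against 20793.5 over all constant regions, and their median width was 662 bp against 658 bp.

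Per 100 kb of window, the mean number of listed regions over 8 libraries was highest at Bcl6 (10.97), followed by Pdcd1 (9.91), Btla (8.31), Cd200 (7.47), Tox (7.42), Prdm1 (6.66), Pou2af1 (5.08), Sh2d1a (4.83), Tox2 (4.50) and Maf (4.30). The median over genes with a listed region was 5.70. Between libraries the density of Bcl6 ranged from 7.83 to 12.5 per 100 kb and that of Pdcd1 from 9.22 to 11.1, so these neighbours overlapped. Maf ranged from 2.29 to 4.58 and Tox2 from 3.72 to 5.59, and they overlapped too. Windows of Sh2d1a, Tox2, Pdcd1 and Cd200 also hold the protein-coding genes Tex13d and Tenm1, Jph2, Neu4 and Gm609, so a region there may belong to a neighbour.

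The first comparison asked whether loss of Tet1 and Tet3 changed the number of open regions at these genes. At 9 of the 10, counts overlapped between cDKO and control libraries. The exception was Tox, with 23, 25, 25 and 25 regions in cDKO libraries, against 26, 26, 26 and 29 in control libraries. Every cDKO library was below every control library, by 1 region at the nearest point. The means were 24.5 ± 1 in cDKO and 26.75 ± 1.5 in control (SD, n = 4 each), a difference of −2.25. Across all 18116 genes with a listed region, 1.72% were lower and 1.76% higher without overlap. These shares cover genes with any number of regions and were not matched to Tox, which has many. The exact 2-sided permutation test over 70 relabellings gave its smallest p, 0.0286, and the adjusted p over all genes was 0.82. No gene passed an adjusted p of 0.05, while 631 had an unadjusted p under 0.05. With 0.0286 as the smallest p, passing would need most of the genes to reach it, so the design could hardly give a pass. With the deposited lists in full, Tox counts overlapped and the difference was −4.75 with an exact p of 0.657. With half-length lists they overlapped too, with a difference of −2.75 and an exact p of 0.0571.

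Prdm1 showed a smaller difference that overlapped. It had 8, 8, 9 and 8 regions in cDKO libraries and 9, 8, 10 and 10 in control libraries, where the library pair with TGF-β only was highest. Pou2af1 had 3 regions in each cDKO library, against 4, 3, 4 and 4 in control libraries. Btla had 6, 5, 5 and 5 in cDKO, against 7, 7, 5 and 6 in control. Cd200 had 5, 5, 4 and 4 in cDKO, against 6, 6, 5 and 5 in control. For these 4 genes the control mean was the higher, but libraries of both genotypes shared a value, and the adjusted p of the exact permutation test over all genes was 1 for each.

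Bcl6 leaned the other way, with 8, 7, 7 and 7 regions in cDKO libraries and 7, 8, 5 and 7 in control libraries. Maf, with the sparsest window, had 2 regions in each library except replicate 1 of control with IL-2, which had 1. Sh2d1a had 3, 4, 2 and 3 in cDKO and 2, 3, 3 and 3 in control. Tox2 had 6, 6, 9 and 7 in cDKO and 7, 8, 8 and 7 in control. Pdcd1 had 5, 6, 6 and 5 in cDKO and 5, 6, 5 and 5 in control. None of these differences exceeded the spread between libraries.

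**Figure D1:**
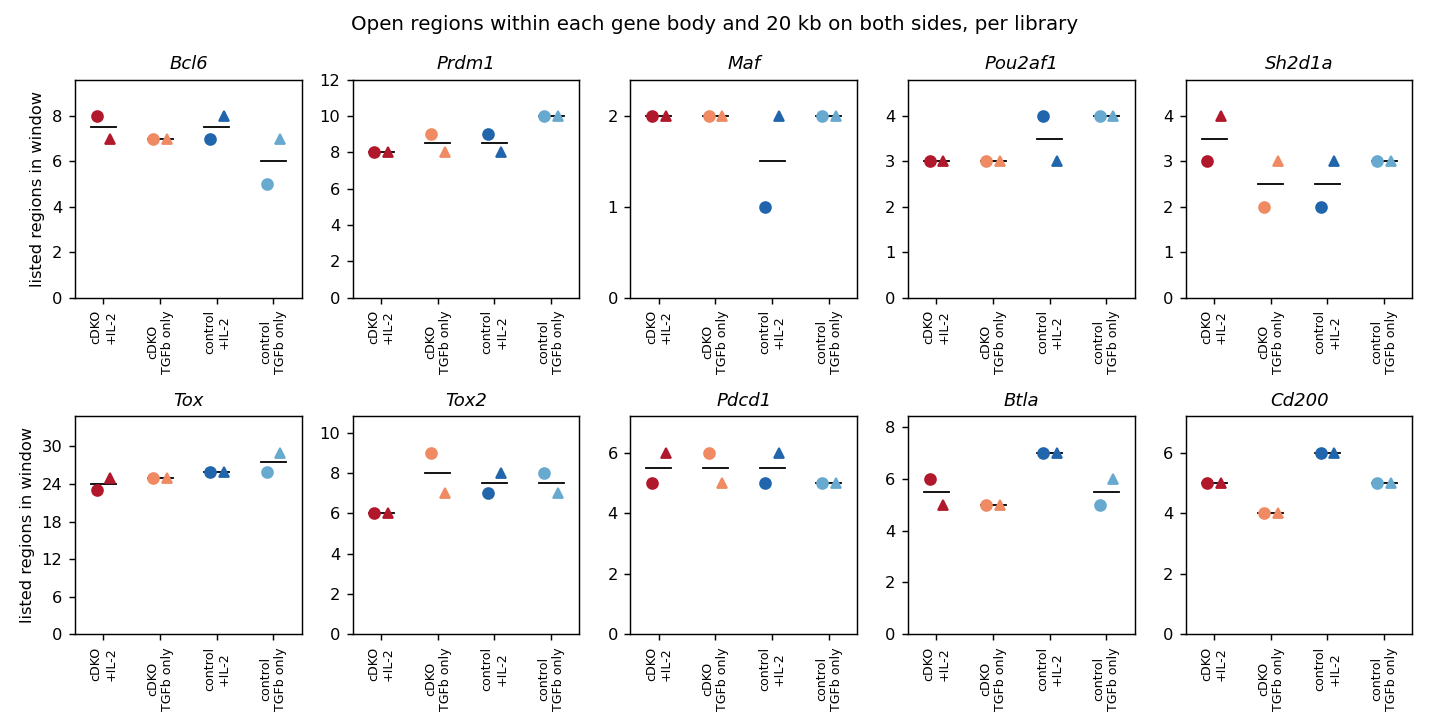
Listed regions in the window of each gene (y axis, number of regions) in each of the 4 groups (x axis); circles are replicate 1, triangles replicate 2 and bars group means. Tox is the gene whose 4 cDKO libraries (23 to 25) all lie below the 4 control libraries (26 to 29).

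No region of the 10 genes was listed in all 4 cDKO libraries and no control library, or the reverse. Over all 95899 regions these shares were 0.706% higher and 1.12% lower in cDKO. Among the 73 regions listed in at least 4 libraries, which were 69.5% of the 105 against 67.4% of all regions, 3 ranked higher in every cDKO library than in any control library, and 4 ranked lower. Over all 64597 such regions the shares were 7.34% and 7.5%, and together 9.59% of the regions at the 10 genes separated, against 14.8% of all regions. Each separated region has an exact permutation p of 0.0286, the smallest possible, and an adjusted p of 0.193. No region in the whole set passed an adjusted p of 0.05, and 9584 had an unadjusted p under 0.05. Passing would again need most of the regions to reach the smallest p. Without replicate 2 of control with IL-2, 7 ranked higher and 7 lower, against 10.2% and 10.1% of all regions. Leaving out a library eases the rule: 5 ranked higher without replicate 1 or 2 of cDKO with IL-2, against 9.7% and 10.1% of all regions. Without that replicate 2, 7 ranked lower, against 9.88%. Without replicate 1 of control with TGF-β only 7 ranked higher, against 10.6%, and without its replicate 2, 6, against 10.5%. When each rank was taken as a share of the full deposited list, or of a list at a −log10 q of at least 3, all 7 regions overlapped between genotypes. There 2 others ranked higher and 1 lower, of 107 and 102 regions ranked, against 4.19% and 3.21% of all regions in full lists and 4.2% and 3.32% at the stricter limit. A lower rank can mean that fewer cells have the region open or that it is less open per cell, and the 2 cannot be told apart in bulk.

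Cd200 held both of its genotype-separated regions on the side of higher rank in cDKO. The region over its start site, chr16:45408373-45409151, covers part of the promoter window printed above. It ranked 8152 and 6070 in cDKO with IL-2 and 6889 and 8129 in cDKO with TGF-β only, against 12022 and 19584 in control with IL-2 and 11555 and 12529 in control with TGF-β only. All 4 cDKO libraries were ahead of all 4 control libraries, with and without IL-2. Mean ranks were 7310 ± 1016 in cDKO and 13922.5 ± 3795 in control (SD, n = 4 each). The authors' fold over background for it lay between 8.26 and 15.0 over the 8 lists.

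A second Cd200 region, inside the gene at chr16:45389664-45390190, ranked 11137, 14064, 13111 and 7099 in cDKO, against 15776, 22088, 16172 and 22038 in control. The order of the genotypes was the same in both arms. At the other end of Cd200, chr16:45381825-45382157 ranked 11623, 10434, 10327 and 10624 in cDKO and 20219, 28273, 10392 and 17136 in control, and here 1 control library fell among the cDKO ranks. Of the 5 Cd200 regions ranked, 4 had the better mean rank in cDKO, a count of neighbouring regions that carries no test.

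Tox2 held the third region that ranked higher in cDKO, chr2:163228900-163229486, 26.1 kb inside the gene. It was also its strongest region. It ranked 7144, 4862, 6838 and 6185 in cDKO, against 8448, 9433, 7718 and 10626 in control, and the nearest libraries were 574 ranks apart. The start region of Tox2, chr2:163202845-163203906, overlapped between genotypes, with ranks of 14047 to 22482 in cDKO and 12716 to 24030 in control.

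Tox, the long gene of the set, held 2 of the 4 regions that ranked lower in cDKO, both inside the gene body. One, chr4:6772040-6772809, ranked 61365 and 39829 in cDKO with IL-2 and was unlisted and 63111 in cDKO with TGF-β only. In control it ranked 26494 and 24967 with IL-2 and 20164 and 21590 with TGF-β only. The unlisted library held a peak there at rank 72124 of its deposited list. Mean ranks were 57529 ± 11941 in cDKO, with the unlisted library placed last, and 23304 ± 2929 in control (SD, n = 4 each). This was the widest genotype gap of the separated regions at these genes, 13335 ranks between the nearest libraries. When a peak had to cover 50% of the region, the ranks no longer separated.

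The other, chr4:6975632-6976360, ranked 36329, 54775, 60300 and 30383 in cDKO, against 19177, 20936, 29052 and 11340 in control, and the nearest libraries were 1331 ranks apart. Other Tox regions ran both ways. The region chr4:6903677-6904018 had a mean rank of 57123 in cDKO and 33986 in control, and chr4:6759016-6759363 one of 46992 in cDKO and 31648 in control, with libraries that overlapped. The reverse held at chr4:6694856-6695324, with 21779 in cDKO and 33277 in control, also with overlap. These 3 were chosen after their values were seen. The strongest regions of the gene lie beyond its end of lower coordinate. Of them, chr4:6681562-6682471 ranked 774 to 2705 in cDKO and 1508 to 4361 in control. At the other end, chr4:6990134-6991663 ranked 18585 to 22514 in cDKO and 19261 to 35358 in control. Of the 25 Tox regions ranked, 13 had the better mean rank in cDKO and 12 in control.

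**Figure D2:**
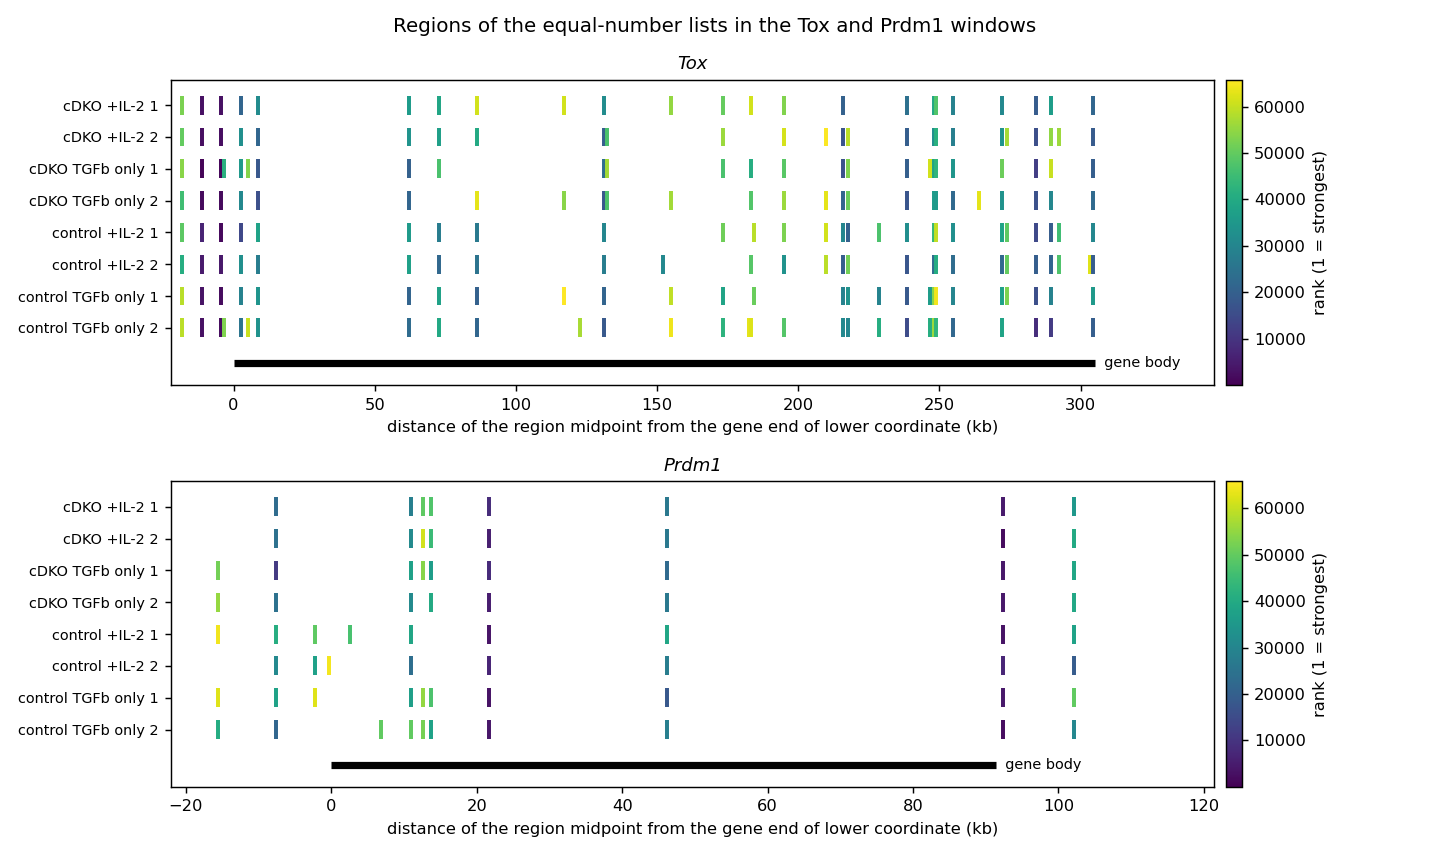
Listed regions of Tox (top) and Prdm1 (bottom) in each library, by distance in kb from the gene end of lower coordinate; each tick is a region and its colour the rank. The Tox region at 86.1 kb ranks 39829 or lower in cDKO or is missing, and 20164 to 26494 in control.

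Sh2d1a and Btla held the other 2 regions that ranked lower in cDKO. At Sh2d1a it was the region over the gene end of lower coordinate, chrX:42502206-42503200, the only Sh2d1a region listed in all 8 libraries. It ranked 27455, 23724, 22954 and 21130 in cDKO, against 18074, 13742, 20699 and 19287 in control, and the nearest libraries were 431 ranks apart. Btla's was chr16:45261278-45261963, which lies 8.38 kb beyond the gene. It ranked 25353, 19668, 21255 and 20339 in cDKO, against 15816, 13514, 17280 and 13435 in control. The Btla gene body did not share this, with ranks at its start region chr16:45223549-45225010 of 12830 to 19786 in cDKO and 13505 to 16119 in control. With the authors' fold in place of −log10 p for ranking, the Sh2d1a, Btla and Tox2 regions and the Tox region at 6975632 overlapped between genotypes.

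**Figure D3:**
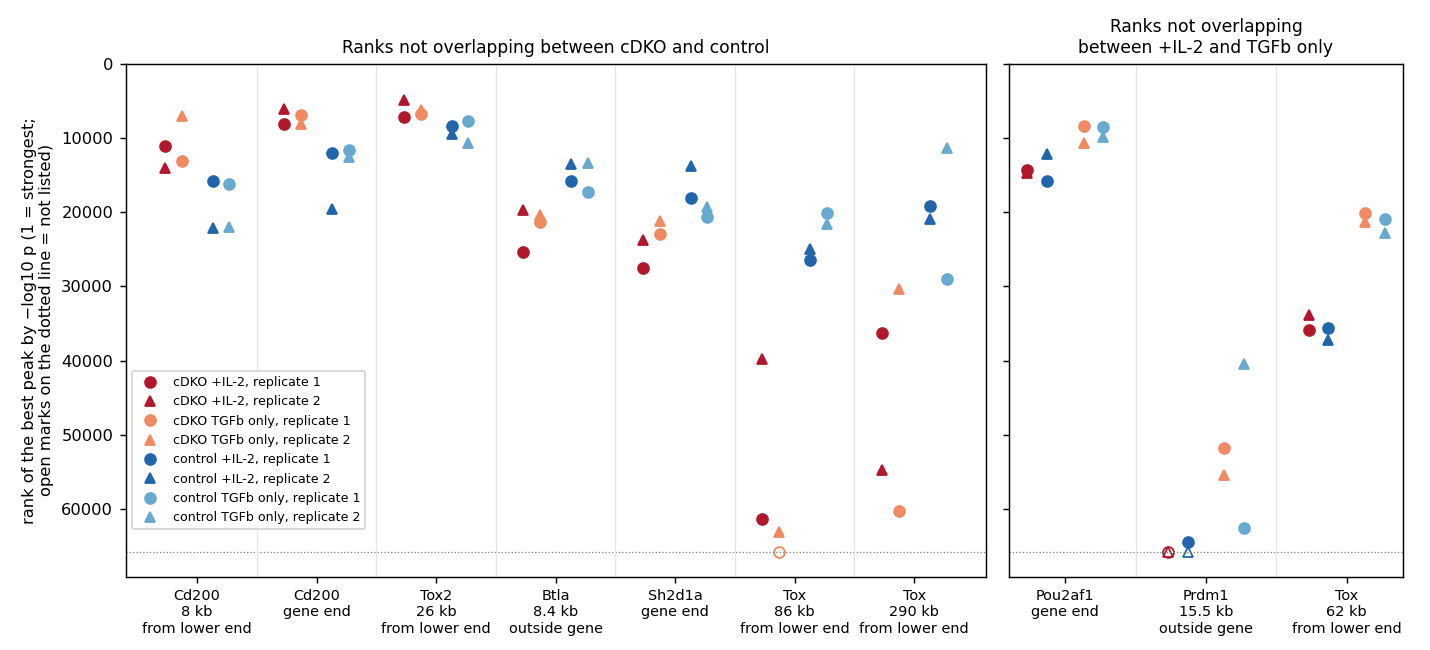
Rank of each region (y axis, 1 is strongest, open marks are unlisted) in the 8 libraries, for the 7 regions whose ranks did not overlap between cDKO and control (left) and the 3 whose ranks did not overlap between IL-2 and TGF-β only (right). Cd200 and Tox2 regions sit higher in cDKO (red and orange), and Btla, Sh2d1a and Tox regions lower.

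The opposed repressors had no region that separated by genotype. The strongest Bcl6 region, chr16:23997121-23997750, lies 8.26 kb beyond the gene on the side of its start. It ranked 5062, 5200, 1881 and 983 in cDKO, against 8399, 4851, 6072 and 3284 in control. The 2 best ranks were those of cDKO with TGF-β only, but the genotypes overlapped. Mean ranks were 3282 ± 2168 in cDKO and 5652 ± 2158 in control (SD, n = 4 each). The region over the Bcl6 promoter window, chr16:23988556-23989125, ranked 31353 to 40929 in cDKO and 23699 to 53256 in control. Of the 7 Bcl6 regions ranked, 6 had the better mean rank in cDKO, against 55.1% of all regions. This counts neighbouring regions of 1 gene and carries no test. Some of the differences were small beside the spread, such as −968.75 ranks at the promoter region, with an SD of 12450 in control.

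Prdm1 had its strongest region 0.544 kb beyond the gene, chr10:44529102-44530072. It ranked 4537, 2053, 4270 and 4338 in cDKO, against 3188, 6816, 4349 and 2094 in control. The region over the printed promoter window, chr10:44458489-44459117, ranked 8041, 5409, 7903 and 5228 in cDKO, against 3343, 6470, 3207 and 4081 in control. Ahead of all cDKO libraries were 3 of the 4 control libraries, and replicate 2 of control with IL-2 fell among the cDKO ranks. A weaker region 2.13 kb below the gene, chr10:44434715-44435043, was unlisted in the 4 cDKO libraries and ranked 49388, 37463 and 62478 in 3 control libraries. In the deposited lists, 3 of the 4 cDKO libraries had a peak there, at ranks 76523 to 102916.

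Maf and Pdcd1 had no separated region. The Maf region over its end of higher coordinate, chr8:115705826-115708402, ranked 16576 to 20264 in cDKO and 14141 to 20988 in control. The distal one, chr8:115726434-115727156, ranked 36547, 24148, 18015 and 22278 in cDKO, against unlisted, 49739, 22988 and 47050 in control, with 1 control library among the cDKO ranks. The strongest Pdcd1 region, chr1:94034870-94036387, ranked 2759 to 3874 in cDKO and 966 to 5753 in control. The Pdcd1 start region, chr1:94051988-94052805, ranked 21734 to 29840 in cDKO and 28761 to 34134 in control, and 1 cDKO library fell among the control ranks.

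The second comparison asked what added IL-2 changed at these genes. No region was listed in all 4 IL-2 libraries and no TGF-β only library, or the reverse, where all regions gave 0.348% higher and 0.229% lower. Region counts per gene overlapped at all 10 genes, where 0.723% of all genes were higher and 0.552% lower without overlap. No gene passed an adjusted p of 0.05, and 231 had an unadjusted p under 0.05. The limit set by the smallest p holds for IL-2 too, for genes and for regions. Of the 73 ranked regions, 0 ranked higher with IL-2 in every library and 3 ranked lower, against 3.36% and 3.31% of all regions. Taking both directions, 6.67% of all regions separated. For the Pou2af1 and Tox regions, listed in all 8 libraries, the exact permutation p is 0.0286 and the adjusted p 0.428, and no region of the whole set passed, with 4308 at an unadjusted p under 0.05. Without replicate 2 of control with IL-2, the counts were 1 and 3, against 4.55% of all regions higher. Leaving out any other library except replicate 1 of cDKO with TGF-β only gave 5 lower, against 4.23% to 6.24% of all regions. With ranks as shares of the full deposited lists, 9 of 107 were lower, against 3.68% of all regions, and 8 of 102 at a −log10 q of at least 3, against 4.01%. Under these settings 0 ranked higher, against 0.68% and 0.632% of all regions, so the shares of all regions were uneven there too.

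The 3 regions belong to Prdm1, Pou2af1 and Tox. At Prdm1, chr10:44421416-44421652 lies 15.5 kb beyond the gene. With IL-2 it was unlisted in both cDKO libraries and ranked 64369 and unlisted in control, whereas with TGF-β only it ranked 51745 and 55388 in cDKO and 62614 and 40448 in control. It was listed in 5 libraries, the 4 with TGF-β only and 1 with IL-2, so it entered the ranked set through the side where it is high and its separation is a description with no test. The deposited lists held a peak there in 7 of the 8 libraries. In the shorter lists of 32905 peaks it was not listed at all.

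The Pou2af1 region is the one over the printed promoter, chr9:51213419-51214315. It ranked 14378 and 14674 in cDKO with IL-2 and 15797 and 12125 in control with IL-2, against 8402 and 10711 in cDKO with TGF-β only and 8494 and 9824 in control with TGF-β only. The nearest libraries were 1414 ranks apart. Mean ranks were 14244 ± 1539 with IL-2 and 9358 ± 1112 with TGF-β only (SD, n = 4 each). Ranked by the authors' fold instead, the difference of mean ranks was −2030, with the better rank in the IL-2 libraries, and the order reversed.

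Inside Tox, chr4:6748124-6748791 had the widest gap of the IL-2 comparison, 11063 ranks between the nearest libraries. It ranked 35839, 33876, 35624 and 37252 with IL-2, against 20134, 21325, 20926 and 22813 with TGF-β only. Both genotypes gave the same order, and mean ranks were 35648 ± 1384 with IL-2 and 21300 ± 1124 with TGF-β only (SD, n = 4 each). Its separation was kept under each of the 14 alternative settings run for it. Those that left out a library or paired by replicate number could not break it. It could have been lost with the full lists, the lists of 32905 peaks, the stricter q, ranking by fold or the 50% cover.

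Regions leaned to the TGF-β only side more widely than these 3. Of the 73, 29 had the better mean rank with IL-2, or 39.7%, against 47.9% of all regions. Genes differed, with 0 of 5 at Btla and 2 of 9 at Prdm1 on the IL-2 side, but 4 of 6 at Pdcd1 and 2 of 3 at Pou2af1. A better mean rank was counted however small it was beside the spread between libraries. These are counts of neighbouring regions and carry no test. For genotype, 42 of the 73 had the better mean rank in cDKO, or 57.5%, against 55.1% of all regions.

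Within each arm, 2 libraries faced 2, where the smallest exact p is 0.333, so the following regions are descriptions. With IL-2, 4 of the 105 regions were listed in both cDKO libraries and neither control library, and 4 the reverse, against 3.61% and 3.97% of all regions. With TGF-β only these were 2 and 3, against 3.86% and 4.19%. IL-2 gave 0 and 2 in cDKO, against 2.79% and 2.94% of all regions. In control it gave 5 and 5, against 2.39% and 2.51%. Either way, IL-2 altered the listing of 9.52% of the regions in control, where all regions gave 4.9%, and of 1.9% in cDKO, where all regions gave 5.73%. Whether the 2 genotypes differ in this was not tested, and the control side includes the library with the shortest list.

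At Prdm1, the region chr10:44450764-44451102 inside the gene ranked 47815 and 44671 in cDKO with IL-2 and 36468 and 39757 in cDKO with TGF-β only. In control it was unlisted in both libraries with IL-2 and ranked 47121 and 37854 with TGF-β only. It was the 1 region of the 105 missing in control with IL-2 alone, as were 0.775% of all regions. In each of the other 3 groups, 0 of the 105 were missing in that group alone, against 0.255% of all regions for cDKO with IL-2, 0.704% for cDKO with TGF-β only and 0.219% for control with TGF-β only. The deposited list of replicate 1 of that group held a peak there at rank 71362. A neighbour, chr10:44449739-44449952, ranked 49364 and 61298 in cDKO with IL-2 and 53920 and unlisted in cDKO with TGF-β only, against unlisted in both control libraries with IL-2 and 55125 and 52164 in control with TGF-β only.

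The reverse, listed in control with IL-2 alone, held for 1 region each at Sh2d1a and Cd200, against 0.983% of all regions. The Sh2d1a region, chrX:42497024-42497287, ranked 51897 and 51643 there, and the Cd200 region, chr16:45389040-45389565, ranked 55393 and 65714. Another Sh2d1a region, chrX:42487310-42487685, was listed in control with TGF-β only alone, at 51336 and 46679, as were 0.454% of all regions. All 3 sit in the lower part of the lists, and other groups had weaker peaks there. The deposited lists held a peak in 4 libraries at chrX:42497024-42497287, in 5 at the Cd200 region and in 6 at chrX:42487310-42487685. No region was listed in cDKO with IL-2 alone or in cDKO with TGF-β only alone, against 0.413% and 1.11% of all regions.

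Other regions in these comparisons were also weak. At Bcl6, chr16:23997886-23998186 ranked 53637 and 60223 in control with IL-2 and was unlisted in control with TGF-β only. In cDKO it was listed in 1 library, at 48474 with IL-2. At Pou2af1, chr9:51215456-51215694 was unlisted in all 4 cDKO libraries and ranked 59170 and 43535 in control with TGF-β only, and 39158 in 1 control library with IL-2. Pdcd1 had chr1:94047999-94048286, which ranked 43429 to 55157 in the 4 cDKO libraries and 48546 in a single control library, replicate 2 with IL-2. Tox2 had chr2:163310280-163310514, at 61261 and 51890 in cDKO with IL-2 and unlisted in control with IL-2, and chr2:163232134-163232595, unlisted in cDKO with IL-2 and at 63282 and 60351 in control with IL-2. Tox2 also had chr2:163198718-163198916, which was unlisted in cDKO with IL-2 and ranked 64275 and 52055 in cDKO with TGF-β only. At Sh2d1a, chrX:42511031-42511753 ranked 61843 and 64102 in cDKO with IL-2 and was unlisted in control with IL-2.

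Tox had 1 region in each direction in the TGF-β only arm. There chr4:6818456-6818739 ranked 56749 and 47328 in cDKO and was unlisted in control. In the opposite direction chr4:6914996-6915261 was unlisted in cDKO and ranked 29436 and 40693 in control. The first was also listed in 1 cDKO library with IL-2, at 46912, and the second in 1 control library with IL-2, at 47230. In control, IL-2 also divided Tox regions, with chr4:6978279-6978886 at 45452 and 47454 with IL-2 and unlisted with TGF-β only, and chr4:6932852-6933024 unlisted with IL-2 and at 36055 and 40822 with TGF-β only. No region at the 10 genes was listed for one genotype in one arm and for the other genotype in the other arm, as were 40 regions of the whole set.

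**Figure D4:**
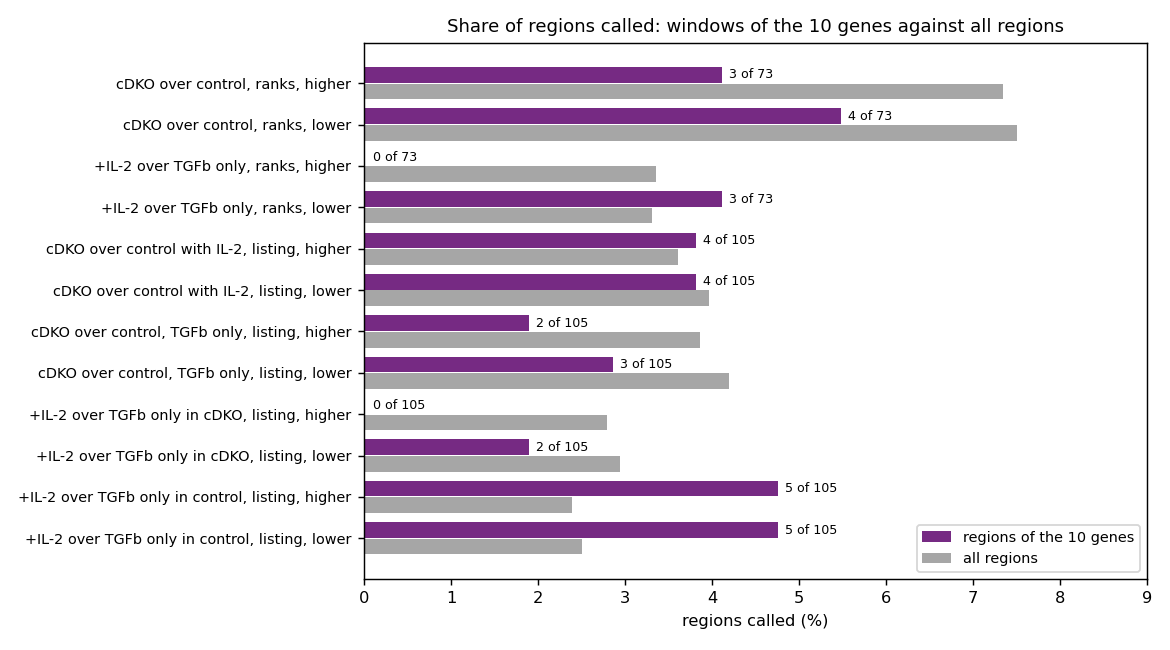
Share of regions called in each comparison (x axis, percent) for the 10 genes (purple, with counts) and all regions (grey); the upper 4 pairs use ranks of 73 regions and the lower 8 the listing of 105. The regions of the 10 genes lie below all regions for genotype by rank (3 and 4 of 73) and above them for IL-2 in control (5 and 5 of 105).

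The 10 genes were set beside other genes of the pathway. Of 20 genes known to favour the follicular helper fate, such as the chemokine receptor gene Cxcr5 and the transcription factor genes Tcf7 and Lef1, the windows held 297 listed regions. Of these, 4 were listed in all cDKO libraries and no control library, or 1.35%, and 8 the reverse, or 2.69%, against 0.706% and 1.12% of all regions. By rank, 21 of 206 were higher in cDKO and 15 lower, 10.2% and 7.28%, against 7.34% and 7.5% of all regions. Of 10 genes that restrain it, such as Klf2, Foxo1 and Foxp1, 3 of 205 regions were higher and 7 lower by listing, 1.46% and 3.41%, and 12 and 15 of 139 by rank, 8.63% and 10.8%, beside the same shares of all regions. The rank counts, here and for IL-2 below, include every region called by listing. Such a region enters the ranked set through the side where it is high, so its separation by rank was fixed in advance. Rank is therefore no second support beside listing, and the shares of all regions include such regions too. Windows of Stat3, Stat5a and Stat5b share regions, which were counted once within a list. The 2 lists are not separate, as chr11:100904640-100905289, in the windows of Stat3 and Stat5a, is among the regions lower by listing in both.

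Lef1 and Foxp1, a factor that holds T cells in the naive state, had fewer regions in every cDKO library than in any control library, as did 1.72% of all genes. They are the 2 of these 30 genes that did so, named after their values were seen. The share of 1.72% was again not matched for the number of regions. Lef1 had 18, 17, 16 and 14 regions in cDKO, against 24, 25, 19 and 21 in control. Foxp1 had 54, 53, 56 and 56 in cDKO, against 61, 64, 61 and 65 in control. Both have the same exact p of 0.0286 and adjusted p of 0.82 as Tox. Foxp1 lies on chromosome 6, as does the targeted gene Tet3, and whether this bears on the Foxp1 regions was not tested. Foxp1 held 4 of the 7 regions lower by listing in the restraining list. Lef1 and Bach2, a repressor that holds back effector genes, held 2 each of the 8 in the favouring list. Each of these 2 also held 1 of the 4 higher by listing, as did Il6st and Slamf6. An unlisted region can still have a peak in the deposited list. The Bach2 region at 32391292, lower by listing, had one in all 4 cDKO lists, at ranks 69368 to 84616. The Foxp1 region at 99259822 had none there. The Il6st region, higher by listing, had control peaks at ranks 81590 to 107355.

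With IL-2, the favouring genes had 0 regions higher and 1 lower by listing, and 9 higher and 3 lower by rank, 4.37% and 1.46%, where all regions gave 0.348% and 0.229% by listing and 3.36% and 3.31% by rank. The restraining genes had 1 higher and 2 lower by listing, and 5 and 6 by rank, 3.6% and 4.32%. The single region higher by listing lay 1.21 kb from Il2ra, the gene of the IL-2 receptor alpha chain. The lymph node homing receptor gene Ccr7 had 14, 14, 12 and 12 regions with IL-2, against 11, 11, 9 and 11 with TGF-β only, with an exact p of 0.0286 and an adjusted p of 1. Its IL-2 libraries were all above its TGF-β only libraries, as were those of 0.723% of all genes.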

How the data were processed

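ATAC-seq peak lists of 8 libraries were used, 2 in each of 4 groups taken from the titles. The authors deposited 1 list per library, and for each peak a fold over background (a ratio), a −log10 p-value and a −log10 q-value, which are the authors' values. Per the submitters' processing notes, the tools included MACS2 2.2.7.1, HOMER 4.11.1, ChIPseeker 1.18.0, DiffBind 2.10.0, SAMtools 1.3.1, Bowtie2 2.4.1, Picard and Trimmomatic 0.39, with the builds GRCm38 and mm10. No source used here gives read shifting, duplicate removal, calling settings or read depth, so depth is unknown and no counting interval is given.

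Peaks overlapping by at least 1 bp were merged into 175276 regions. Each list was shortened to its 65811 strongest peaks by −log10 p, and the best peak's rank was used. Genotype and IL-2 were each compared 4 libraries against 4. A region was called by listing (all of one side, none of the other) or by ranks that do not overlap, among regions listed in at least 4 libraries. Region counts per gene were compared with an exact 2-sided permutation test over 70 relabellings, with Benjamini-Hochberg adjustment over 18116 genes. Scripts used Python 3.11.15, NumPy 2.4.6, pandas 2.3.3 and Matplotlib 3.10.9, and the calling steps were tested on simulated data.

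Genes and promoter windows came from RefSeq tables of GRCm38.p6, which give gene bodies without exons, so exonic or intronic position was not analysed here. Named regions are, per gene, the best-ranked, those at gene ends, up to 3 rank-separated ones per direction, and the strongest called one per direction in comparisons of 2 against 2. Further regions beside them were chosen after their values were seen. The genes, lists and tests were chosen with earlier results of these data known. Alternatives were the full lists, half-length lists, a −log10 q of at least 3, ranking by fold, a 50% cover, windows of 0 and 50 kb, each library left out, and pairing by replicate number.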

Additional observations from a re-analysis of the deposited data

Results flagged for a closer look

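Some regions had a genotype or IL-2 difference in mean rank that ran opposite ways in the 2 arms, with both libraries of each group on the same side. The differences were not tested, since each arm holds 2 libraries against 2. A negative difference means a better rank in cDKO, or with IL-2. Of the 64597 ranked regions, 2.94% did this for genotype and 3.63% for IL-2, against 4 and 3 of the 73 at the 10 genes.

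For genotype, the Tox2 region at 163340265, beyond the gene, differed by −22823.5 ranks with IL-2 and by 16070 with TGF-β only. It ranked 37786 and 39815 in cDKO with IL-2 against 63569 and 59679 in control with IL-2, and 57945 and 53405 in cDKO against 34848 and 44362 in control with TGF-β only. The Tox region at 6667712 differed by 6357 with IL-2 and −8986.5 with TGF-β only. At the Btla start region, 45223549, the values were 4190 and −2272. In Pdcd1, the region at 94046389 gave −2045.5 with IL-2 and 2559 with TGF-β only.

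For IL-2, the same Tox2 region differed by −16874.5 ranks in cDKO and by 22019 in control. The Tox region at 6772040 differed by −13864.5 in cDKO and 4853.5 in control, while its ranks also separated the genotypes. The Sh2d1a region at 42502206 differed by 3547.5 in cDKO and −4085 in control. These come from the same libraries as the genotype values and are not independent of them.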

How the results depend on the processing

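Of the 16 alternative settings, all but the stricter q, ranking by fold and the 50% cover repeated the permutation test per gene. No gene of the 10 passed an adjusted p of 0.05 there, which would again have needed most genes at the smallest p. The replicate block could not pass, as its smallest p is 0.125. Counts of regions by rank, higher and lower in cDKO, were 3 and 4 of 73 (7.34% and 7.5% of all regions). They were 2 and 1 of 107 with the deposited lists in full (4.19% and 3.21%), 2 and 1 of 102 at a −log10 q of at least 3 (4.2% and 3.32%), 4 and 2 of 65 when ranked by fold (5.88% and 5.34%), and 5 and 3 of 61 with a 50% cover (6.97% and 7.43%). With 50 kb windows they were 4 and 8 of 110, against the same 7.34% and 7.5%, as the window does not change the shares of all regions. Denominators and shares differ, so the counts alone do not compare. By listing, where the count was 0 both ways, ranking by fold gave 1 and 1 of 110 (0.6% and 0.837%) and half-length lists 1 lower of 49 (1.2%). For IL-2, 0 higher and 3 lower by rank became 9 lower of 107 with full lists (3.68%), 8 of 102 at the stricter q (4.01%), 2 higher of 65 by fold (2.95%) and 1 higher of 110 with 50 kb windows (3.36%). With full lists and at the stricter q, 0 ranked higher, where all regions gave 0.68% and 0.632%. By listing, full lists, half-length lists and the stricter q each gave 1 lower, of 178 (0.221%), 49 (0.322%) and 160 (0.243%). Other counts under these settings stayed within 1.5 times, while rank differences of single regions moved further, such as Tox at 6772040, 34226 against 9602 with half-length lists, where unlisted ranks are capped lower.

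Leaving out 1 library, a looser rule with fewer libraries to separate, gave for genotype 0 to 1 higher and 0 to 2 lower by listing and 3 to 7 and 4 to 7 by rank. For IL-2 it gave 0 to 1 and 0 to 2 by listing and 0 to 2 and 3 to 5 by rank. The highest genotype count of 7 higher came without replicate 2 of control with IL-2 or replicate 1 of control with TGF-β only. Without the first, and without replicate 2 of cDKO with IL-2, 7 were lower.

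Replicate numbers did not pair libraries in a uniform way. Correlations of deviations were 0.375 between the 2 control groups and −0.19 to 0.0375 between the other pairs of groups. With a replicate block, 10 regions were higher and 10 lower for genotype (15.7% and 14% of all) and 3 and 13 for IL-2 (11% and 11.7%), since a consistent sign in 4 pairs suffices. Its smallest p is 0.125.

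Among single-region rank differences under the alternatives run for them, 119 kept direction and call, 20 lost the call and 1, Pou2af1 by fold (−2030), reversed. Leaving out a library or pairing by replicate number cannot break a full separation. Entries under those settings were therefore bound to be among the 119. Differences in region counts reversed with full lists for genotype at Bcl6 and Pdcd1 (both −0.25) and for IL-2 at Bcl6 and Sh2d1a (both −2.25), Pdcd1 and Btla (both −0.25) and Cd200 (−1). With half-length lists they reversed at Prdm1 (0.75) for genotype and at Prdm1 (0.25) and Tox (1.25) for IL-2. With the gene body alone, Prdm1 and Tox2 reversed (both 0.25), and with 50 kb Pou2af1 (0.5) and Sh2d1a (−0.75) for genotype and Bcl6 (−0.5) and Pdcd1 (−1) for IL-2. Without replicate 2 of cDKO with IL-2, Sh2d1a was −0.0833 in both comparisons (−0.0833 to 0.583 over the libraries left out), and without replicate 1 of control with TGF-β only Bcl6 was −0.0833 for genotype (−0.0833 to 0.917). The cause of these changes was not tested. The Tox difference ran from −4.75 to −1.5, and its genotypes overlapped with full and half-length lists. List length and the shallow limit of 1 list bound what ranks can resolve.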
